A study of Mus musculus with 6 samples.

Results

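The cytochrome P450 family was followed as 73 genes named Cyp plus a digit, in 2 tissues, colon and liver, of C57BL/6J mice that were male and 7 weeks of age. They were chosen as the probe sets of the array whose annotation gave exactly 1 such symbol, 98 probe sets of the 34958 with a lone symbol, and they stand beside 18194 genes in all. RNA was measured on the Affymetrix Mouse Genome 430 2.0 array, which reads each transcript through sets of short oligonucleotides. Mice of the control group (CON) had basal diet and plain water. The DSS group had the same diet, plain water for 7 days and then dextran sodium sulphate at 1.5% in the water, a polymer known to damage the lining of the colon, for 10 days. The DSSPAR group had a diet with 2% parsley throughout, and after the same 7 days the same 1.5% polymer for 9 days. The parsley diet without the polymer was not analysed here. RNA of 7 mice was pooled, and 1 array was run for each of the 6 combinations of group and tissue, so no test of a difference between groups was possible and no spread between mice is known. Since DSSPAR and DSS differ in diet and, as labelled, in 1 day of the polymer, those differences cannot be told apart.

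P450 enzymes hold a haem group and insert oxygen into fat-soluble molecules, drawing electrons from reductase partners. The Cyp1, Cyp2, Cyp3 and Cyp4 subfamilies oxidise drugs, plant compounds, fatty acids and eicosanoids, while most higher-numbered members act on cholesterol, bile acids, steroids, retinoic acid or vitamin D. In the liver many of them are among the abundant hepatocyte transcripts, and inflammation is known to lower several of them. In the colon a smaller group is made by the lining epithelium.

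Of the 73 genes, 29 lay above the floor on at least 1 colon array and 58 on at least 1 liver array. The floor, 25.1 in colon and 96.6 in liver, is the median of all values on the 3 arrays of that tissue. Lower values were set to the floor, and a fold measured from such a value is written as at least that fold. Both tissues passed for 26 genes, colon alone for Cyp2c65, Cyp2d34 and Cyp4f18, liver alone for 32, and neither for 12, among them Cyp24a1, which breaks down active vitamin D, and Cyp27b1, which makes it. Cyp2b10, a phenobarbital-inducible drug oxidase, was also in neither by its brightest probe set, although another of its 3 probe sets read 117 in liver CON. The arrays of the tissues are on different scales, so no level is compared between colon and liver.

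Each tissue showed its own markers, although the lists were not exclusive to a tissue. All 8 absorptive colonocyte and 6 goblet cell markers were above the floor in colon CON, and all 6 hepatocyte markers in each liver array. On every colon array 3 of the 6 hepatocyte markers (Ttr, Tat and Hnf4a) were also above it, while albumin (Alb), Apoa1 and Serpina1c were under it. In liver CON, 3 of the colonocyte and 2 of the goblet cell markers were above the floor. The colon DSS array carried signal from exocrine pancreas: 5 of 5 markers on the array were above the floor there, with a summed intensity of 1849, against 35.9 in CON and 29.8 in DSSPAR, where none was. Neutrophil and macrophage markers summed to 1221 in CON, 7009 in DSS and 5851 in DSSPAR in colon, and to 11980.2, 39619 and 26455 in liver, led by S100a8 and S100a9. The median intensity of the DSSPAR arrays lay under that of CON by 0.28 in colon and 0.31 in liver on the log2 scale, whereas over probe sets above the floor the median log2 ratio stayed between -0.036 and 0.011 in the 6 comparisons.

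In the colon, the largest P450 differences between DSS and CON were toward lower values in DSS. Of 28 measured members, 7 were at least 2-fold lower in DSS than in CON (25%), while 1.97% of the 11952 genes measured were. In the other direction, 2 were at least 2-fold higher (7.14%), with 5.18% of all genes. Of the arrays compared, Cyp4b1 and Cyp11a1 were above the floor in CON only, and both higher genes, Cyp7b1 and Cyp4f18, in DSS only. The floor thus fixed the direction of these genes. All genes were counted by the same rule. The median log2 ratio was -0.31 over the members and 0.042 over all genes. The 3 most strongly lowered genes of the whole colon comparison were all P450 genes, Cyp2c55, Cyp2c65 and, by a bound, Cyp4b1. In these bulk pools, fewer cells of a type and less RNA per cell cannot be told apart. Of the 8 absorptive colonocyte markers, 3 were at least 2-fold lower in DSS and none 2-fold higher. The lower were Slc51a at a log2 ratio of -3.90, Guca2a at -1.37 and Car1 at -1.01. The list was split, with 4 markers below CON and 4 above and a median of -0.079. Those above were Aqp8 at 0.84, Ceacam20 at 0.57, Krt20 at 0.54 and Vil1 at 0.17. The summed intensity of the list was 22786 in CON, 18446 in DSS and 21010.1 in DSSPAR. Of 4 adipocyte markers on the array, Adipoq and Fabp4 were at least 2-fold higher in DSS, at 1.55 and 1.45, and none was in DSSPAR. The list summed to 306, 823 and 565, Lep was under the floor throughout, and the part of either list in the P450 values was not tested.

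**Figure D1:**
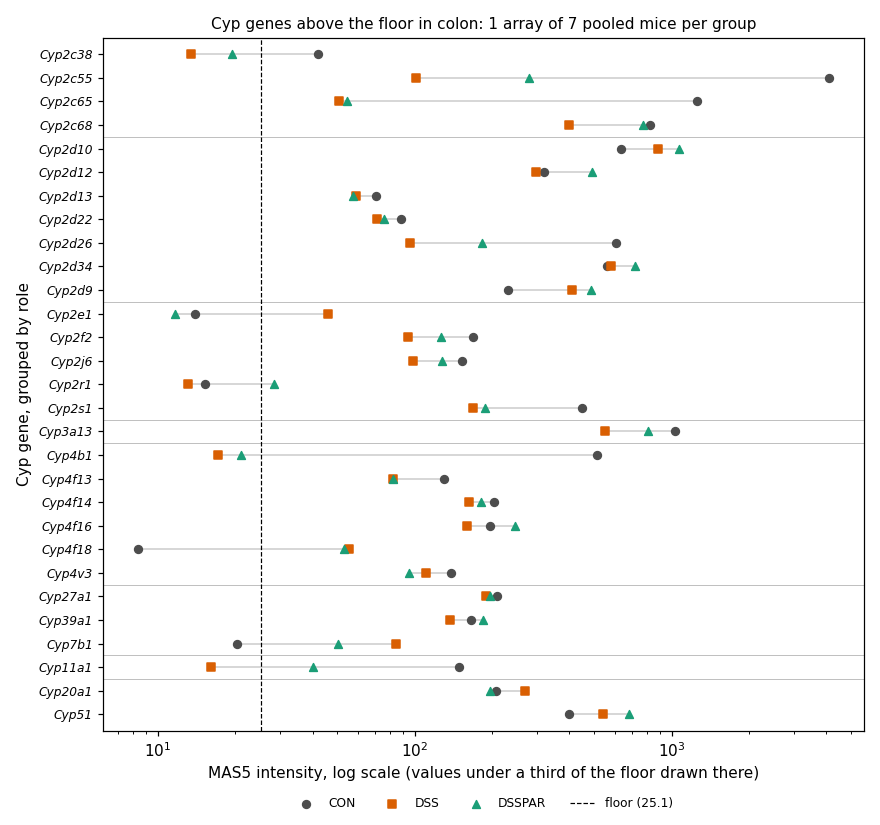
MAS5 intensity (log axis) of each P450 gene above the floor in colon, with 1 point per array of 7 pooled mice and the floor of 25.1 as a dashed line; genes are grouped by role. Cyp2c55, Cyp2c65 and Cyp4b1 stretch from 4094, 1258 and 512 in CON to at most 101 in DSS, while most other genes hold their 3 points close together.

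The Cyp2c enzymes, which oxidise arachidonic and linoleic acid as well as drugs, held the largest colon differences. Cyp2c55 read 4094 in CON, 101 in DSS and 278 in DSSPAR. It was 40.4-fold lower in DSS than in CON, the lowest log2 ratio of the 11952 genes, and 14.7-fold lower in DSSPAR. Cyp2c65, its neighbour on the chromosome, read 1258, 50.8 and 54.5, so that both polymer-treated arrays lay far under CON and close to each other, at 24.8-fold and 23.1-fold lower. With a floor at the 75th percentile both log2 ratios were -3.60, a bound, rather than -4.63 and -4.53. Its probe set is of a type that can detect related transcripts. Cyp2c68 read 822, 399.9 and 773, which put only the DSS array 2.06-fold under CON, and its log2 ratio came to -0.96 with arrays centred on their medians. Cyp2c38 was above the floor in CON alone, at 42.1. The other 7 Cyp2c members were under the floor on every colon array.

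The stretches just before the start sites of the strongly lowered colon genes are printed because these genes were lower together, Cyp2c55 and Cyp2c65 being neighbours. They are the 150 bases before the annotated start, on the gene's strand, from RefSeq promoters of assembly GRCm38.p6. Capitals mark matches on either strand to 6 motifs: the TATA box TATAAA, the CCAAT box CCAAT, the nuclear receptor core AGGTCA, the aryl hydrocarbon receptor core GCGTG, the HNF1 core GTTAAT and the C/EBP core TTGCNNAA, where N is any base. None of these motifs overlapped another within the stretches shown. Cyp2c55 lies at chr19:39006869-39007018 (plus strand), Cyp2c65 at chr19:39060856-39061005 (plus), Cyp4b1 at chr4:115647722-115647871 (minus), Cyp2d26 at chr15:82794246-82794395 (minus) and Cyp2s1 at chr7:25816526-25816675 (minus).
Cyp2c55: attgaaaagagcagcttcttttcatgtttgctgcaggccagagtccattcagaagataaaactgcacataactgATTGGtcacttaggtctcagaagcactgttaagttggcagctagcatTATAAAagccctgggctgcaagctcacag
Cyp2c65: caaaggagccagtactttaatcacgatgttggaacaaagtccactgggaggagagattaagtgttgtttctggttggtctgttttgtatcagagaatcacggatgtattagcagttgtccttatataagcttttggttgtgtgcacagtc
Cyp4b1: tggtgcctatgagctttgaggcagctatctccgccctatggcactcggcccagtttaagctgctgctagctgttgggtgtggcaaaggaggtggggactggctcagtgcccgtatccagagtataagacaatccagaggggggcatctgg
Cyp2d26: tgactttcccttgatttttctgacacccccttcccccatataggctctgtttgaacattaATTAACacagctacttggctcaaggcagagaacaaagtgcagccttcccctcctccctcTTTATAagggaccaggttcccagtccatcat
Cyp2s1: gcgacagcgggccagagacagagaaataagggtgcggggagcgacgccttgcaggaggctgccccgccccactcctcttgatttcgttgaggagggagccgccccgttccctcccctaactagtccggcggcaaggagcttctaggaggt

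TATAAA was in the Cyp2c55 stretch at 29 to 24 bases before the start and, on the other strand, in the Cyp2d26 stretch at 31 to 26 bases. Of the 73 members, 52 had a stretch in the table, and 32.7% of them held TATAAA, against 7.57% of all 32851 stretches of that length. Each member was counted by its first listed stretch only, while a gene could count with several among all stretches. The shares for members and all stretches were 36.5% and 24.5% for CCAAT, 11.5% and 8.58% for AGGTCA, 19.2% and 20.5% for GCGTG, 1.92% and 3.71% for GTTAAT, and 11.5% and 5.46% for TTGCNNAA. Aligned to each other, the Cyp2c55 and Cyp2c65 stretches matched in 58% of 157 columns, compared with 48.8% for Cyp2c55 and Cyp4b1 and 49.1% for Cyp2c55 and Cyp2d26. A match in these letters is a description of the sequence and no measurement of binding.

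Outside Cyp2c, 4 colon members were at least 2-fold lower in DSS. Cyp4b1, which oxidises fatty acids and activates some toxicants, read 512 in CON and lay under the floor at 17.2 in DSS and 21.1 in DSSPAR, at least 20.4-fold lower in each; with a floor at the 75th percentile the bound on the log2 ratio was -2.30 rather than -4.35. Cyp2d26, a member of the drug-oxidising Cyp2d group, read 607, 95.7 and 183, with the DSSPAR array between the others, and was 6.35-fold lower in DSS and 3.32-fold lower in DSSPAR. Cyp2s1, an epithelial enzyme that oxidises retinoids and eicosanoids, read 449, 169 and 187, or 2.66-fold and 2.39-fold lower, the second of these at a log2 ratio of -0.98 with arrays centred on their medians. Cyp11a1 cuts the cholesterol side chain in steroid synthesis. It read 149, 16.1 and 40.3, at least 5.94-fold lower in DSS and 3.7-fold lower in DSSPAR, but its other 2 probe sets were under the floor throughout, and with a floor at the 75th percentile the log2 ratio was -0.52 in both comparisons. Of 4 adrenal and gonad markers on the array, none was above the floor in colon CON or DSSPAR and 1, Star, was at 27.1 in DSS.

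Higher in the DSS colon were Cyp7b1, which hydroxylates oxysterols, and Cyp4f18, a leukotriene oxidase of neutrophils. Cyp7b1 read 20.3, 84.7 and 50.2, with CON under the floor, and was at least 3.37-fold higher in DSS. A second probe set of it read 27.3, 64 and 35.1, in the same order. Cyp4f18 read 7.51, 55.3 and 53.1, so that both polymer-treated arrays were alike and CON was under the floor, at least 2.21-fold and 2.12-fold higher. With the floor at the 75th percentile neither gene was measured, and with no floor Cyp4f18 had log2 ratios of 2.88 and 2.82. The neutrophil and macrophage markers were higher in the same arrays, 5 of 7 by at least 2-fold in DSS and 5 of the 6 measured in DSSPAR, and their part in these values was not tested.

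The other colon members did not pass 2-fold in DSS against CON. For Cyp2c38 and Cyp2e1 the values are bounds, so a larger difference is possible. Cyp2c38 was at least 1.68-fold lower, and Cyp2e1, at 13.9 in CON and 46 in DSS, at least 1.84-fold higher. Cyp3a13, a steroid and drug oxidase, read 1027, 549 and 808, a log2 ratio of -0.90, and Cyp2f2, which activates naphthalene, 169, 94.2 and 127, a log2 ratio of -0.84. Cyp27a1, which starts the acidic bile acid route, read 209.8, 189.6 and 196, a range under the spread between probe sets of a gene. That spread, a robust SD of a log2 ratio, was between 0.24 and 0.28 in colon and between 0.30 and 0.36 in liver, and holds no difference between mice or arrays. Cyp4f14, a fatty acid hydroxylase, read 203, 162 and 181. Cyp51, the lanosterol demethylase of cholesterol synthesis, read 397, 541 and 683, and its 3 probe sets kept that order. The Cyp2d members apart from Cyp2d26 were mixed in DSS against CON, with log2 ratios below 0 for Cyp2d12 (-0.11), Cyp2d13 (-0.25) and Cyp2d22 (-0.31) and above 0 for Cyp2d9, Cyp2d10 and Cyp2d34. A second probe set of Cyp2d13, of the type that can detect related transcripts, went the other way at 43.7, 48.5 and 79.2. Cyp2d10 read 635, 886 and 1071, and Cyp2d9 read 231, 409 and 487. Cyp1a1 and Cyp1a2, targets of the aryl hydrocarbon receptor, were under the floor on every colon array, as were Cyp1b1, Cyp3a11 and Cyp4a14.

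With the parsley diet, colon P450 values lay mostly above those of DSS by small amounts. Of 27 measured members, 20 were above DSS and 7 below, with a median log2 ratio of 0.25 against -0.013 over all genes. Only Cyp2c55 passed 2-fold, at 2.74-fold higher, or 3.7% of members, while 0.392% of the 11730 genes measured were that much higher. None was 2-fold lower (1.24% of all genes). Cyp2c68 and Cyp2d26 were next, at log2 ratios of 0.95 and 0.93. Set against CON, 6 of 28 members stayed at least 2-fold lower in DSSPAR (21.4%; 2.1% of all 11808 genes), namely Cyp2c65, Cyp4b1, Cyp2c55, Cyp11a1, Cyp2d26 and Cyp2s1. The 2 at least 2-fold higher (7.14%; 3.51% of all genes) were Cyp4f18 and Cyp2d9, the latter 2.11-fold, through a probe set that may also read related transcripts. Of the arrays compared here, Cyp4b1 was above the floor in CON only and Cyp4f18 in DSSPAR only, so the floor fixed their direction. With arrays centred on their medians, the 2 higher and 6 lower became 5 and 5. Such centring moves every gene, so the share over all genes can move as well and is not given for it. DSSPAR values of the 7 genes lower in DSS lay between CON and DSS for 6, and nearer to CON only for Cyp2c68. Values above DSS are partly built into this count, because the genes were chosen for a low value on the DSS array. The DSSPAR and DSS comparisons share the CON array, so their values are not independent. In the DSSPAR colon the pancreas markers were all under the floor, unlike in DSS, and the part of that signal in the P450 values was not tested.

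In the liver more P450 genes passed 2-fold in DSS, again mostly toward lower values. Of 57 measured members, 15 were at least 2-fold lower in DSS than in CON (26.3%; 4.2% of the 13034 genes measured) and 4 at least 2-fold higher (7.02%; 4.73% of all genes). The median log2 ratio was -0.51 over members and -0.018 over all genes. The summed intensity of the hepatocyte markers was 387555 in CON, 518931 in DSS and 300718 in DSSPAR, and none of the 6 was 2-fold off in any comparison. All 4 periportal markers on the array (Cps1, Pck1, Hal and Ass1) and 4 of 5 pericentral ones (Glul, Oat, Slc1a2 and Axin2) were below CON in DSS. The part of the hepatocyte, periportal and pericentral lists in the P450 values was not tested.

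**Figure D2:**
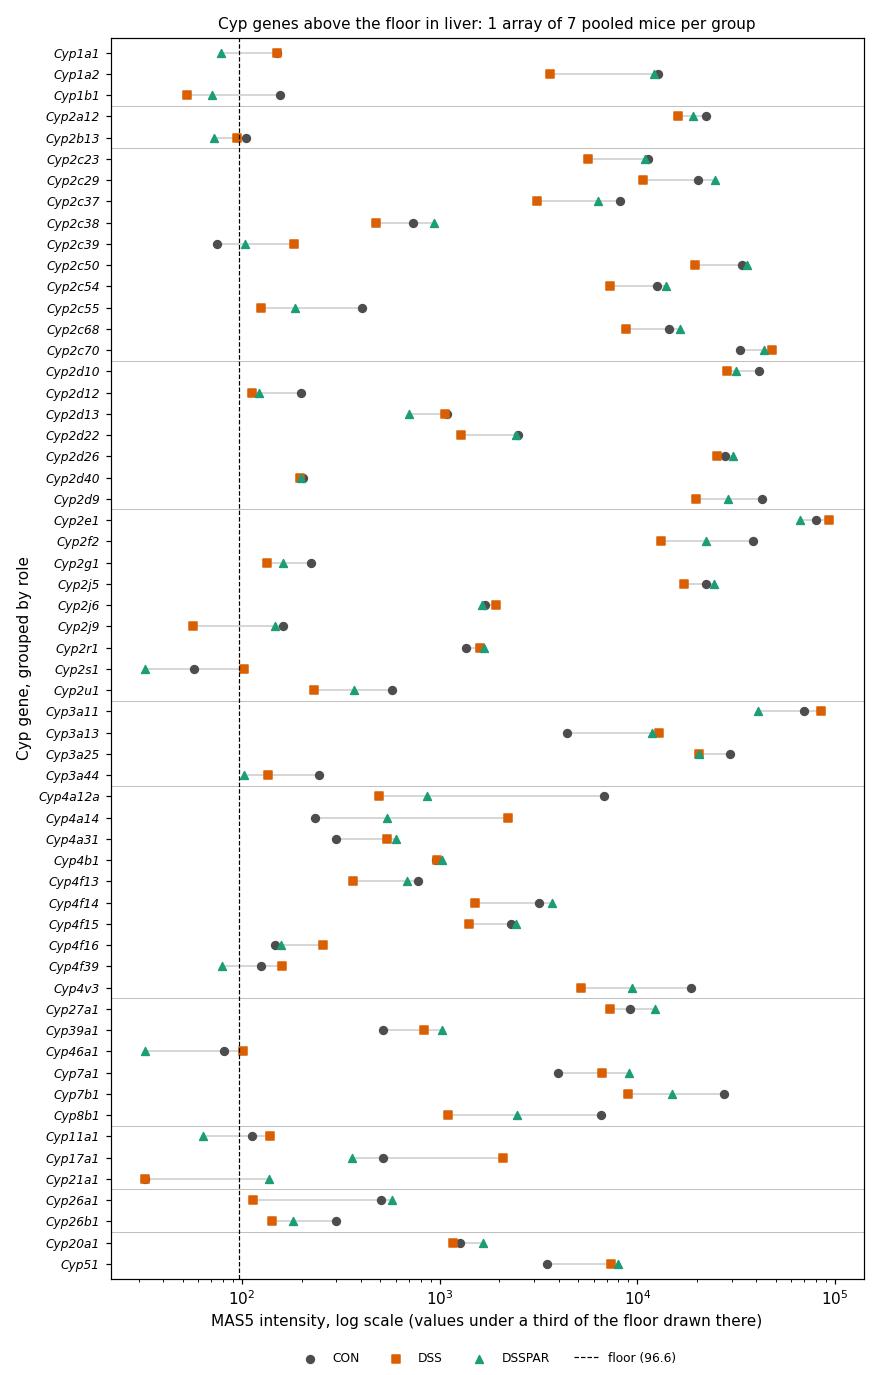
MAS5 intensity (log axis) of each P450 gene above the floor in liver, drawn as for colon, with the floor of 96.6 dashed. Cyp4a12a runs from 6773 in CON to 493 in DSS and Cyp4a14 the other way from 234 to 2219; for Cyp1a2 and Cyp26a1 the DSSPAR point sits at or near CON.

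Liver start-site stretches are printed for 4 genes that carry the main patterns: lower in DSS and close to CON in DSSPAR (Cyp1a2 and Cyp26a1), lower in both (Cyp8b1) and higher in both (Cyp51). Capitals mark the same 6 motifs. Cyp1a2 lies at chr9:57683656-57683805 (minus), Cyp8b1 at chr9:121916306-121916455 (minus), Cyp26a1 at chr19:37697658-37697807 (plus) and Cyp51 at chr5:4104698-4104847 (minus).
Cyp1a2: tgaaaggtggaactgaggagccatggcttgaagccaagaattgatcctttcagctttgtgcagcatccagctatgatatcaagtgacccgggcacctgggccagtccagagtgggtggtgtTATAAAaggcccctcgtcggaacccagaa
Cyp8b1: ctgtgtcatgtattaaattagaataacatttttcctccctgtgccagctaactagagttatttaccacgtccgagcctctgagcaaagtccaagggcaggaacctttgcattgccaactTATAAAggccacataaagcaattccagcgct
Cyp26a1: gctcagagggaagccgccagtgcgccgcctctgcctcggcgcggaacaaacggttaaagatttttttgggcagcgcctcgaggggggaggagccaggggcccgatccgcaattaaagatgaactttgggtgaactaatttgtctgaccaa
Cyp51: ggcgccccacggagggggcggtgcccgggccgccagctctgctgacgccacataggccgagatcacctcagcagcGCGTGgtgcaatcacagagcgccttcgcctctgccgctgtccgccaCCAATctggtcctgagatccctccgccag
TATAAA stood 29 to 24 bases before the start of Cyp1a2 and 31 to 26 before that of Cyp8b1. The Cyp51 stretch, at 70% G and C, held GCGTG and CCAAT instead, and the Cyp26a1 stretch held none of the 6.

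Among the Cyp1 enzymes, which oxidise aromatic compounds and are targets of the aryl hydrocarbon receptor, Cyp1a2 was bright in liver. It read 12659 in CON, 3608 in DSS and 12067 in DSSPAR, 3.51-fold lower in DSS and 3.34-fold higher again in DSSPAR than in DSS, the DSSPAR array lying next to CON. Cyp1a1 read 151, 150.2 and 78.2, and Cyp1b1 156, 52.9 and 70.5, both near the floor. Transcripts of the receptor itself, Ahr, read 2482, 9339.6 and 4495. Its targets Nqo1 and Tiparp were not 2-fold off in any liver comparison, and Ahrr and Aldh3a1 were under the floor.

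The liver Cyp2c genes were mostly lower in DSS and back near CON in DSSPAR. Of 10 measured, 8 were below CON in DSS, with a median log2 ratio of -0.79, and 8 were above DSS in DSSPAR, with a median of 0.91. Cyp2c37, a fatty acid epoxygenase, read 8197, 3102 and 6315, or 2.64-fold lower in DSS and 2.04-fold higher in DSSPAR than in DSS, the latter at 0.98 when centring used probe sets over the floor. Cyp2c29, a related epoxygenase, read 20210.3, 10677 and 24578, and was 2.3-fold higher in DSSPAR than in DSS. Cyp2c55, the gene of the lowest ratio in colon, read 404, 124 and 185 in liver, 3.26-fold and 2.18-fold under CON; both log2 ratios were -0.14 with the higher floor. Cyp2c23 read 11340.5, 5627 and 10958, just past 2-fold lower in DSS at 2.02-fold, and under it at -0.87 and -0.96 with median centring and quantile scaling. Cyp2c70, known for making muricholic bile acids in mice, went the other way at 32855, 48133 and 43463.

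Of the liver Cyp2 genes outside Cyp2c, 3 were at least 2-fold lower in DSS. Cyp2f2 read 38529.7, 13181 and 22125, 2.92-fold lower in DSS with DSSPAR between. Cyp2d9, a male-predominant steroid hydroxylase, read 42915, 19832 and 28634, 2.16-fold lower in DSS, and all 7 measured Cyp2d genes were below CON, with a median of -0.54; median centring put Cyp2d9 at -0.97. Cyp2u1, a fatty acid hydroxylase, read 572, 231 and 367, 2.48-fold lower, with a log2 ratio of -0.64 under the higher floor and -0.99 as the mean of its 2 probe sets. Cyp2e1, the ethanol-oxidising enzyme, read 80217, 93494 and 66229.7, and Cyp2a12, a steroid hydroxylase, 22338, 16045 and 19069. Neither came near a 2-fold difference. The Cyp2a5 and Cyp2a4 genes share a probe set and are outside the 73; it read 11602, 798 and 4813, a log2 ratio of -3.86 in DSS.

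Liver Cyp3a genes did not share a direction. Cyp3a11, the pregnane X receptor target and a main drug oxidase of mouse liver, read 69653, 85307 and 40992. DSS and CON were close, and DSSPAR was 2.08-fold under DSS, a log2 ratio of -1.06 that was -0.90 under median centring and -0.56 under quantile scaling. Cyp3a13 read 4422, 12901 and 11894, so that both polymer-treated arrays were above CON, 2.92-fold and 2.69-fold. Cyp3a44, a female-predominant member, read 245, 136 and 102, 2.39-fold lower in DSSPAR than in CON and -0.95 with median centring.

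The Cyp4 fatty acid hydroxylases held the lowest and the highest log2 ratio of DSS against CON among the 57 measured members in the liver. Cyp4a12a, a male-predominant arachidonic acid hydroxylase, read 6773, 493 and 862. It was 13.7-fold lower in DSS, next to last of 13034 genes, and 7.86-fold lower in DSSPAR. Cyp4a14, a target of PPARA, the receptor that drives fatty acid oxidation, read 234, 2219 and 539. It was 9.49-fold higher in DSS than in CON, and DSSPAR lay 4.11-fold under DSS and 2.31-fold above CON in DSSPAR, with the higher floor at log2 ratios of 2.60 for DSS and 0.56 for DSSPAR against CON. The neighbouring Cyp4a genes thus stood on opposite sides of CON. Cyp4a31 read 299, 540.2 and 603, 2.02-fold above CON in DSSPAR, but its log2 ratio was 0.72 with the higher floor, 0.95 with centring on the brighter probe sets, 0.97 with quantile scaling, 1.32 with median centring, and -0.11 as the mean of its probe sets, and a probe set shared with Cyp4a10 read 2278, 1674 and 1022. Of 8 other PPARA targets on the array, 3 were at least 2-fold lower in DSS liver (Acaa1b, Acot1 and Ehhadh) and none higher, with a median of -0.30, while Ppara itself read 5897, 3946 and 6133.

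Further Cyp4 genes were lower in DSS. Cyp4v3, a medium-chain fatty acid hydroxylase, read 18725, 5188 and 9364, 3.61-fold lower in DSS and just short of 2-fold in DSSPAR, with both of its probe sets in the same direction. Cyp4f14 read 3183, 1510.1 and 3683, and Cyp4f13 read 773, 366 and 684. Each was 2.11-fold lower in DSS, or -0.93 with arrays centred on their medians, and Cyp4f14 was 2.44-fold higher in DSSPAR than in DSS. Cyp4b1, so much lower than CON in the treated colon, read 954, 968 and 1026 in liver, where no array stood apart.

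The bile acid genes did not share a direction. Cyp8b1, the sterol hydroxylase that makes cholic acid, read 6529, 1099 and 2447. It was 5.94-fold lower in DSS and 2.67-fold lower in DSSPAR, with DSSPAR 2.23-fold above DSS. Cyp7b1, of the acidic route, read 27384, 8927 and 14957, or 3.07-fold lower in DSS, and its probe sets above the floor gave the same direction. Cyp7a1, the rate-limiting enzyme of the classical route, read 3972, 6648 and 9114, highest in DSSPAR at 2.29-fold above CON, and its 2 probe sets gave log2 ratios of 1.08 and 1.20. Cyp27a1 read 9161, 7287 and 12303 and Cyp39a1, an oxysterol hydroxylase, 514, 831 and 1021, neither past 2-fold. Nr0b2, which represses Cyp7a1, read 1659, 1048 and 1143, and the bile acid receptor gene Nr1h4 read 2819.9, 2812 and 4309.9.

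Cyp17a1, which makes androgen precursors in steroid synthesis, read 516 in CON, 2091 in DSS and 359 in DSSPAR. Only the DSS array was high, 4.05-fold above CON and 5.82-fold above DSSPAR. Of 4 adrenal and gonad markers on the array, none passed 2-fold between DSS and CON: Star had a log2 ratio of -0.57, Nr5a1, under the floor in DSS, -0.33, and Hsd3b1 and Mc2r were under the floor in every liver array. The retinoic acid hydroxylases were both lower in DSS. Cyp26a1 read 505, 114 and 575, 4.43-fold lower in DSS and 5.05-fold higher in DSSPAR than in DSS, the second-highest log2 ratio of 12398 genes. With the higher floor these log2 ratios were -0.46 and 0.65. Cyp26b1 read 298, 141 and 182, 2.11-fold lower in DSS and -0.93 with median centring. Of the retinoic acid receptors, Rarg read 318, 60.2 and 188 and Rarb 294, 147 and 245, in the same order as Cyp26b1.

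Cyp51 read 3509, 7314 and 7937 in liver, 2.08-fold above CON in DSS and 2.26-fold in DSSPAR, and all 3 probe sets were above CON in both; the mean over them was 0.87 in DSSPAR. Of 13 other sterol synthesis enzymes measured, 8 were above CON in DSS and 12 in DSSPAR, with medians of 0.31 and 0.84. At least 2-fold higher were Hmgcs1 and Sqle in DSS and these with Msmo1 in DSSPAR. Srebf2, the regulator of this pathway, read 132, 372 and 271. In colon the same enzymes gave a median of 0.51 in DSS, with 11 of 13 above CON and Fdps past 2-fold. Cyp20a1, an enzyme of unsettled function, read 1267, 1167 and 1654 in liver.

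**Figure D3:**
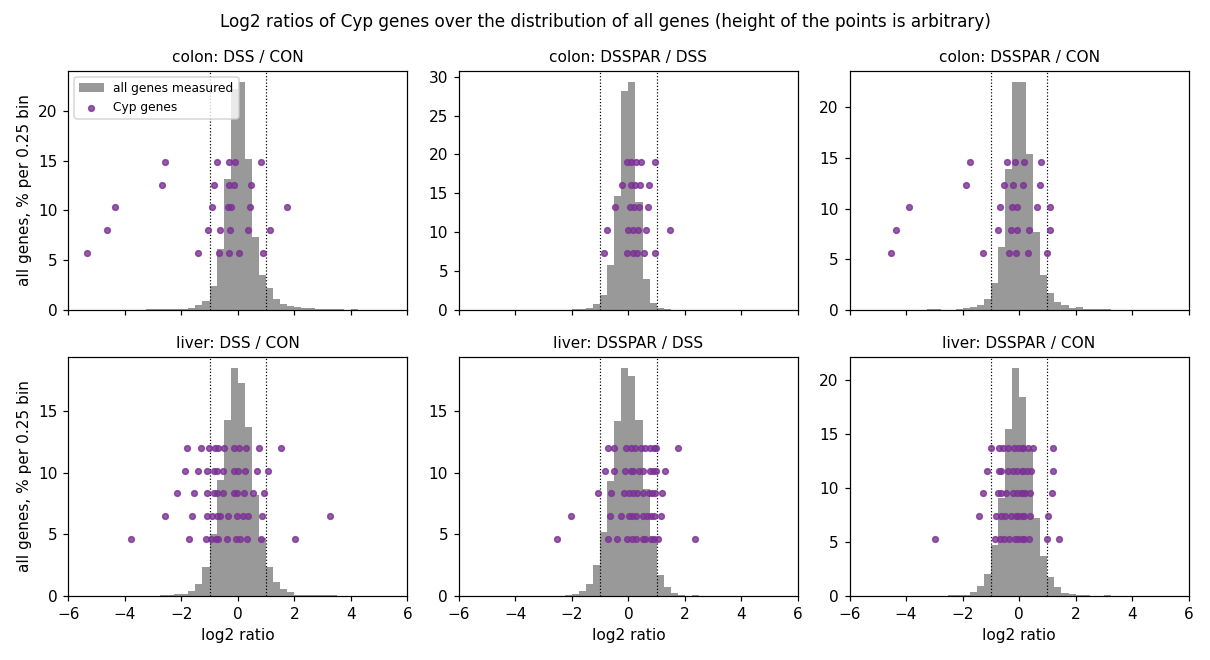
Log2 ratios of the P450 genes (purple points, heights arbitrary) over the distribution of all measured genes (grey, percent of genes per bin of 0.25), for 3 comparisons in each tissue, with 2-fold marked by dotted lines. In DSS against CON the points trail to the left of the grey peak, with medians of -0.31 in colon and -0.51 in liver; in DSSPAR against DSS they lie right of it, with medians of 0.25 and 0.33.

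Set against DSS, liver P450 genes were mostly higher with the parsley diet. Of 56 measured, 40 were above DSS and 16 below, with a median log2 ratio of 0.33 against -0.019 over all genes. At least 2-fold higher were 6 (10.7%; 2.8% of the 12398 genes measured): Cyp26a1, Cyp1a2, Cyp4f14, Cyp2c29, Cyp8b1 and Cyp2c37. At least 2-fold lower were 3 (5.36%; 4.23% of all genes): Cyp17a1, Cyp4a14 and Cyp3a11. This split of 6 and 3 became 14 and 2 under median centring and 8 and 2 under quantile scaling. These settings move every gene, so the shares over all genes can move as well and are not given for the alternatives. Against CON, 5 of 56 were at least 2-fold higher in DSSPAR (8.93%; 3.26% of the 12721 genes) and 4 lower (7.14%; 3.45% of all genes). The higher were Cyp3a13, Cyp4a14, Cyp4a31, Cyp51 and Cyp7a1, and the lower were Cyp4a12a, Cyp8b1, Cyp3a44 and Cyp2c55. The median log2 ratio was -0.064 over members and -0.04 over all genes. Median centring gave 6 and 2, and centring on the brighter probe sets alone 4 and 5. Of the 15 genes lower in DSS, 13 had DSSPAR between DSS and CON, 7 had it nearer to CON, and 3 stayed 2-fold under CON: Cyp4a12a, Cyp8b1 and Cyp2c55. Of the 4 genes higher in DSS, 2 had DSSPAR between, and 3 stayed 2-fold above CON: Cyp4a14, Cyp3a13 and Cyp51. Values toward CON are partly built into these counts, because the genes were chosen for a low or a high DSS value that both comparisons share.

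P450 genes lie in clusters, and 51 of the 73 share a locus with at least 1 other member, 9 loci in all by their order in the RefSeq gene table. In the Cyp2c cluster of 10 genes, the 4 measured in colon were below CON in DSS. Cyp2c38 was measured there through CON alone, so its direction was fixed by the floor. In liver 7 of the cluster's 9 measured genes were below CON in DSS, the exceptions being Cyp2c70 and Cyp2c39, and 7 were above DSS in DSSPAR. In the Cyp2d cluster of 8, 4 of 7 were below CON in colon DSS, Cyp2d13 by 1 of its 2 probe sets, and 7 of 7 in liver DSS. The median log2 ratio over all genes was near 0, at 0.042 in colon and -0.018 in liver, so 4 of 7 was close to the split of all genes. The Cyp4a, Cyp4b and Cyp4x cluster was mixed in liver, with 3 of 4 above CON. Close relatives in a cluster can share probes, so neighbours are not independent readings.

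Few of the measured genes that serve P450 enzymes passed 2-fold. Of 8 electron partners listed, the reductase genes Por and Fdxr had no value here. Of the 6 with values, none was 2-fold off in colon DSS. In liver only Cyb5r3, the cytochrome b5 reductase, was, at 12260 in CON, 4161 in DSS and 10611 in DSSPAR. Alas1, the rate-limiting enzyme of haem synthesis, read 8844, 5039 and 11217 in liver, past 2-fold only in DSSPAR against DSS, with a log2 ratio of 1.15. Of 11 haem synthesis and breakdown genes, none had a log2 ratio past 2-fold in DSS against CON in either tissue. Colon Hmox1 read 14.1, 46.1 and 60.6, with CON under the floor. Its log2 ratios against CON are thus bounds, at least 0.88 in DSS and at least 1.27 in DSSPAR, the latter past 2-fold. Among 19 measured regulators, Ppara was lower in colon DSS at 135, 44.7 and 52.3 and Cebpb, an inflammation-responsive factor, higher at 134, 449.8 and 235. In liver Ahr and Srebf2 were higher in DSS and Rarg lower, while Hnf4a read 10956, 11384 and 11647 and Nr1i3, the receptor CAR, 1069.5, 1230.5 and 1172.

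**Figure D4:**
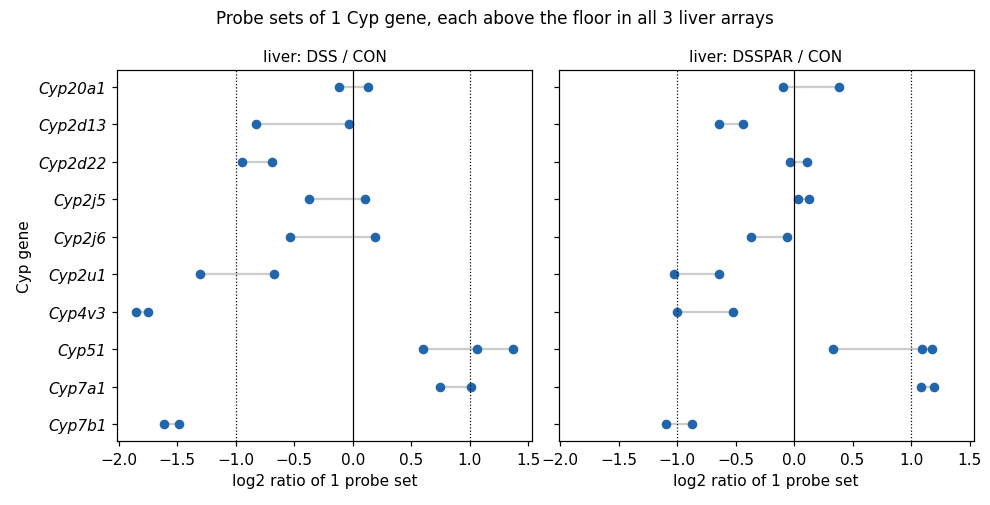
Log2 ratio of each probe set of the 10 P450 genes that had at least 2 probe sets above the floor on all 3 liver arrays, for DSS and DSSPAR against CON; each point is 1 probe set and dotted lines mark 2-fold. Probe sets of Cyp7b1, Cyp4v3, Cyp7a1 and Cyp51 stay on 1 side of 0 in both panels, while those of Cyp2j5, Cyp2j6 and Cyp20a1 straddle it in DSS.

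Separate probe sets of a gene gave a check on these ratios within an array. For 10 genes with at least 2 probe sets above the floor throughout the liver, the sign was shared by all of a gene's probe sets for 7 in DSS against CON and 8 in DSSPAR against CON. Cyp4v3 gave -1.85 and -1.75 in DSS, Cyp7b1 -1.62 and -1.49, and Cyp51 between 0.60 and 1.37. The disagreeing genes, Cyp20a1, Cyp2j5 and Cyp2j6 in DSS and Cyp20a1 and Cyp2d22 in DSSPAR, had log2 ratios between -0.54 and 0.38, none of them past 2-fold.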

How the data were processed

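Total RNA of 7 mice per group was pooled and labelled for 1 array per group and tissue, 6 arrays in all, per the labels' protocols. The deposited values are MAS5 intensities on a linear scale, 1 per probe set and array, per the submitters' processing notes; of MAS5, version and target intensity were not given in the sources used here. Trimmed means were 106, 111 and 110.2 in colon and 499.8 on every liver array, and no value was compared across tissues. All 6 value columns matched a sample. Symbols came from the platform annotation (45101 probe sets, 932 with several symbols, 9211 not listed), and all 73 members were found in the gene table. A gene with several probe sets was read from the one of highest mean log2 intensity in the tissue. The authors' scaling was kept, values below the floor were set to it, and a gene was measured if 1 of its 2 arrays was above the floor. Log2 ratios past 2-fold were counted. A single array per group leaves no residual degrees of freedom, hence no p-value. The number of arrays limits the precision.

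Named are members at least 2-fold off in any comparison, textbook members and the brightest of each subfamily; others are counted. The members and lists were chosen with earlier results of these data known. 7 alternatives were run: no floor, a floor at the 75th percentile, centring on all medians or on those of probe sets over the floor, quantile scaling, the mean over probe sets, and no probe sets of shared type (14 of 98). The ratio code was tested on simulated data. Python 3.11.15, NumPy 2.4.6 and pandas 2.3.3 were used.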

Additional observations from a re-analysis of the deposited data

Results flagged for a closer look

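Cyp7b1, the oxysterol hydroxylase, was on opposite sides of CON in the tissues: its log2 ratio of DSS against CON was 1.75 in colon, where CON lay under the floor, and -1.62 in liver. With 1 array per group and tissue the difference between tissues was not tested.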

How the results depend on the processing

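Of 84 counts of members past 2-fold under the 7 alternatives, 17 moved by more than 1.5 times. The alternatives act on every gene, and the shares over all genes are not given beside these counts. In colon DSS against CON, the 2 higher genes became 0 with the higher floor and 0 with the mean over probe sets. In colon DSSPAR against DSS, the 1 higher gene became 3 with no floor, 3 and 3 with the 2 centrings and 2 with quantile scaling, and 1 gene was lower with no floor. In colon DSSPAR against CON, the 2 higher genes became 5 with median centring and 1 with the higher floor, with the mean over probe sets and without shared probe sets. In liver DSSPAR against DSS, 14 were higher with median centring and 7 lower with no floor. In liver DSSPAR against CON, the 5 higher became 3 with the higher floor and 3 with the mean over probe sets, and the 4 lower became 2 with the higher floor and 2 with median centring. The cause was not tested. Of the 55 ratios past 2-fold, 35 stayed past it under every alternative in which the gene was measured, and 20 came under it in at least 1. Cyp4a31 in liver DSSPAR against CON reversed, at -0.11 with the mean over probe sets. No paired analysis was possible because each group has 1 array. Faint genes are limited by signal over background, and no setting supplies the missing spread between mice.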

Other observations

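A few P450 probe sets carry more than 1 symbol and stand outside the gene counts. The probe set of Cyp2a5 and Cyp2a4, which hydroxylate coumarin and steroids, was 6.03 times as high in liver DSSPAR as in DSS. That of Cyp3a41a and Cyp3a41b read 259, 326 and 153 in liver CON, DSS and DSSPAR, a log2 ratio of -1.09 between DSSPAR and DSS. That of Cyp4f37 and Cyp4f16 read 177, 145 and 242 in colon.

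Near the floor, liver Cyp2c39 read 74.8, 184 and 104, Cyp2j9 161, 56.5 and 146, and colon Cyp2e1 13.9, 46 and 11.7, each with a DSS value on its own side of both other arrays.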
